A study of Homo sapiens with 12 samples.

Results

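Mitochondrial respiration runs on 5 protein complexes, and most of their subunits are encoded in the nucleus. The genes described here are the rows of a deposited RNA count table from the human breast cancer cell line BT549 whose symbol begins with NDUF, UQCR, COX4 to COX8 or ATP5, or is SDHA, SDHB, SDHC or SDHD. The match was on symbols alone and used no expression value, and 105 of the 27046 genes in the table matched. Of these, 91 passed a filter on low counts (more than 1 CPM, a count scaled to a common library size, in at least 3 of 12 libraries) and could be tested. They comprise 43 genes of complex I, 4 of complex II, 9 of complex III, 14 of complex IV, 19 of complex V, a read-through transcript (ATP5MF-PTCD1) and a pseudogene (ATP5F1EP2).

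BT549 is an established triple-negative line of mesenchymal character. The study asked how the cells respond to olaparib, an inhibitor of the DNA repair enzyme PARP, with and without knockdown of the AP-1 transcription factor subunits FOSL1 and JUN. Cells received a pair of siRNA pools against FOSL1 and JUN and then olaparib (olaparib-treated knockdown cells) or the solvent DMSO (DMSO-treated knockdown cells). Other cells received a pool of non-targeting siRNA and then olaparib (olaparib-treated control cells) or DMSO (DMSO-treated control cells). Treatment lasted 48 h and each group had 3 libraries of total RNA. All 12 libraries come from transfected cells of 1 line, the olaparib dose is not given in the sources used here, and none of them states that the 3 libraries of a group came from separate cultures. The p-values therefore measure only the spread between these libraries.

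As background, electrons from NADH enter the chain at complex I, and those from succinate enter at complex II, which is also a citric acid cycle enzyme. Both complexes pass electrons to ubiquinone, from which complex III hands them to cytochrome c, and complex IV uses them to reduce oxygen. Complexes I, III and IV pump protons across the inner mitochondrial membrane, and complex V, the ATP synthase, lets them flow back while making ATP. Tumour cells differ widely in how far they rely on this route rather than on glycolysis. Subunits of complexes I, III, IV and V that are encoded in the mitochondrial genome were not analysed here.

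The siRNAs lowered both of their targets in every library. FOSL1 had 21.7, 22.3 and 19.2 CPM in olaparib-treated knockdown cells and 29.01, 27.5 and 23.8 CPM in DMSO-treated knockdown cells. Its values were 124, 136 and 117 CPM in olaparib-treated control cells and 74.8, 71.4 and 68.5 CPM in DMSO-treated control cells. The log2 change with the siRNAs was -2.57 (SE 0.0808, edgeR adjusted p = 3.15e-14) in olaparib and -1.43 (SE 0.0799, edgeR adjusted p = 8.52e-11) in DMSO. JUN fell by 1.95 and 1.38 on the log2 scale in the same comparisons. Library totals ran between 13763179 and 39715900 counts. The mesenchymal markers VIM (between 2383 and 4147 CPM) and AXL (between 238 and 451 CPM) were abundant, and CDH2 lay between 23.4 and 31.8 CPM. EPCAM and ESR1 stayed at or below 0.0697 CPM, and the endothelial genes VWF, CDH5 and KDR were at 0 in all 12 libraries. Not all epithelial and receptor genes were that low. KRT18 lay between 16.8 and 35.6 CPM and ERBB2 between 96.6 and 130 CPM, whereas CDH1 and KRT8 reached at most 1.48 and 2.09 CPM.

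Because the siRNAs lowered 2 subunits of AP-1, the promoters of genes that came out lower with the knockdown in both drug conditions are shown here. They belong to the members whose calls, described below, also held when any 1 of the 12 libraries was left out. Each is the 250 bases before the RefSeq gene start (GRCh38.p14), 5′ to 3′ on the gene's strand. Capitals mark the ETS letters CCGGAAG (a motif of the ETS family, to which the respiratory gene activator GABP belongs) and the NRF1 motif (GCGCA and GCGC with any 1 base between them), on either strand. The SDHB promoter lies at chr1:17054033-17054282 on the minus strand, that of COX5B at chr2:97645812-97646061 on the plus strand and that of UQCRC2 at chr16:21953111-21953360 on the plus strand. The UQCR11 promoter lies at chr19:1605463-1605712 and the ATP5PO promoter at chr21:33915805-33916054, both on the minus strand. NDUFS5 belongs to the same group of genes.
SDHB: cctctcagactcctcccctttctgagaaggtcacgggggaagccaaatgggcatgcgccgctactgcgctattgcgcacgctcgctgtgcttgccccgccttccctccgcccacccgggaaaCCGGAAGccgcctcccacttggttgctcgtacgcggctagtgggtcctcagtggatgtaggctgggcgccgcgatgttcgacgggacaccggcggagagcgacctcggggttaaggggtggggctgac
COX5B: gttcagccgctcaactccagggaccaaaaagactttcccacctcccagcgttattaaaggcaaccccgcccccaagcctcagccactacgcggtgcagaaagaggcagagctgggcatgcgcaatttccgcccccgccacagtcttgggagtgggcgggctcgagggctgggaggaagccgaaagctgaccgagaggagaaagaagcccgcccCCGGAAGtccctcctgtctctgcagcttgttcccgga
UQCRC2: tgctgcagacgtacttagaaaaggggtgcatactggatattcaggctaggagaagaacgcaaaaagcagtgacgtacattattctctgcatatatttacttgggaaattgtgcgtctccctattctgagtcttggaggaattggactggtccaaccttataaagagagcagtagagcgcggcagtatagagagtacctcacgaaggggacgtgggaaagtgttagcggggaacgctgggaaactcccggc
UQCR11: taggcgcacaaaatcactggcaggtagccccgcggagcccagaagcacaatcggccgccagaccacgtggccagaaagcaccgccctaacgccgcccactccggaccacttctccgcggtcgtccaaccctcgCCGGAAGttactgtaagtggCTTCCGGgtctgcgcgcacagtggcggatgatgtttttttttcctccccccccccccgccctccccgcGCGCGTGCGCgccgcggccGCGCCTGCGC
ATP5PO: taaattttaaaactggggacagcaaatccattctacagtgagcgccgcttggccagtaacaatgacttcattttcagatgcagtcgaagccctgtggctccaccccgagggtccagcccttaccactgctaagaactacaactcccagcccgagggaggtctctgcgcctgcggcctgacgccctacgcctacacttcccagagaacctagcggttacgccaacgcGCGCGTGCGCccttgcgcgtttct

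UQCR11 held 2 matches to each motif, SDHB and COX5B held 1 ETS match each, ATP5PO held 1 NRF1 match and UQCRC2 held neither. None of the 5 sequences held the AP-1 letters TGANTCA or the CRE letters TGACGTCA on either strand. RefSeq promoters were found for 73 of the 89 members of the 5 complexes. NRF1 letters occurred in 13 of these 73 (17.8%), against 5.53% of all 27305 promoters, and ETS letters in 18 of 73 (24.7%), against 8.82%. AP-1 letters occurred in 3 of 73 (4.11%), against 6.6% of all promoters, and CRE letters in 4 of 73 (5.48%), against 1.77%. Among the 14 members called lower with the knockdown in both drug conditions, 12 had a promoter, of which 1 held AP-1 letters, none held CRE letters and 3 each held NRF1 and ETS letters. The 44 promoters of members lower in neither comparison held AP-1 letters in 2, CRE letters in 3, NRF1 letters in 8 and ETS letters in 12 cases. A match states that the letters are present and says nothing of binding.

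Transcript levels differed widely within each complex. Values per kilobase of the deposited gene length (RPKM, after scaling by trimmed means) are given for DMSO-treated control cells. In complex I, NDUFA1, a small membrane-arm subunit, had the highest level at 459.9 ± 7.88 RPKM, and NDUFA5, an accessory subunit, the lowest at 5.65 ± 0.397 RPKM (SD, n = 3 each). NDUFA5 is 1 of the 2 members with a deposited length above 5757 bases, which lowers its RPKM. Ranks by RPKM therefore need not match ranks by CPM. In complex II the iron-sulfur subunit SDHB had 145 ± 4.61 RPKM and the membrane anchor SDHC 26.4 ± 1.03 RPKM. Complex III ranged between 335 ± 5.60 RPKM for the hinge protein UQCRH and 47.2 ± 2.71 RPKM for UQCRHL, a near-identical copy of it with which reads can be exchanged. Complex IV held the widest range, with COX7C at 677 ± 19.6 RPKM and NDUFA4L2 at 1.34 ± 0.186 RPKM. In complex V the catalytic beta subunit ATP5F1B had 584 ± 30.7 RPKM and the coupling factor gene ATP5S 3.99 ± 0.164 RPKM.

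Where a subunit has a broadly expressed and a tissue-restricted isoform, the broadly expressed one was by far the higher in all 12 libraries. COX4I1, the common form of a regulatory complex IV subunit, had group means between 274 and 324 CPM, whereas its lung-enriched form COX4I2 stayed at or below 0.025 CPM. COX6A1 had group means between 97.3 and 131 CPM, and its heart and muscle form COX6A2 at most 0.185 CPM in any library. COX6B1 had group means between 177 and 194 CPM, and its testis form COX6B2 at most 0.771 CPM. COX7A2 had group means between 160.3 and 183 CPM, and the muscle form COX7A1 lay between 1.39 and 3.70 CPM in single libraries. NDUFA4, now counted as a complex IV subunit, had group means between 146 and 159 CPM, and its hypoxia-inducible relative NDUFA4L2 lay between 1.19 and 1.84 CPM in single libraries. The muscle genes CKM and MYH7 reached at most 1.13 and 1.26 CPM.

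Of the 14 matching symbols that were not tested, 8 are members of the complexes (COX4I2, COX6A2, COX6B2, COX7B2, COX8C, ATP5MGL, NDUFA3 and NDUFA6) and the others are antisense, divergent, read-through or pseudogene entries. NDUFA3 and NDUFA6 are listed at 0 in all 12 libraries, although both encode accessory subunits of complex I. The annotation used for counting is not given in the sources used here and may not have assigned reads to these genes, so a value of 0 does not say that they were not expressed.

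**Figure D1:**
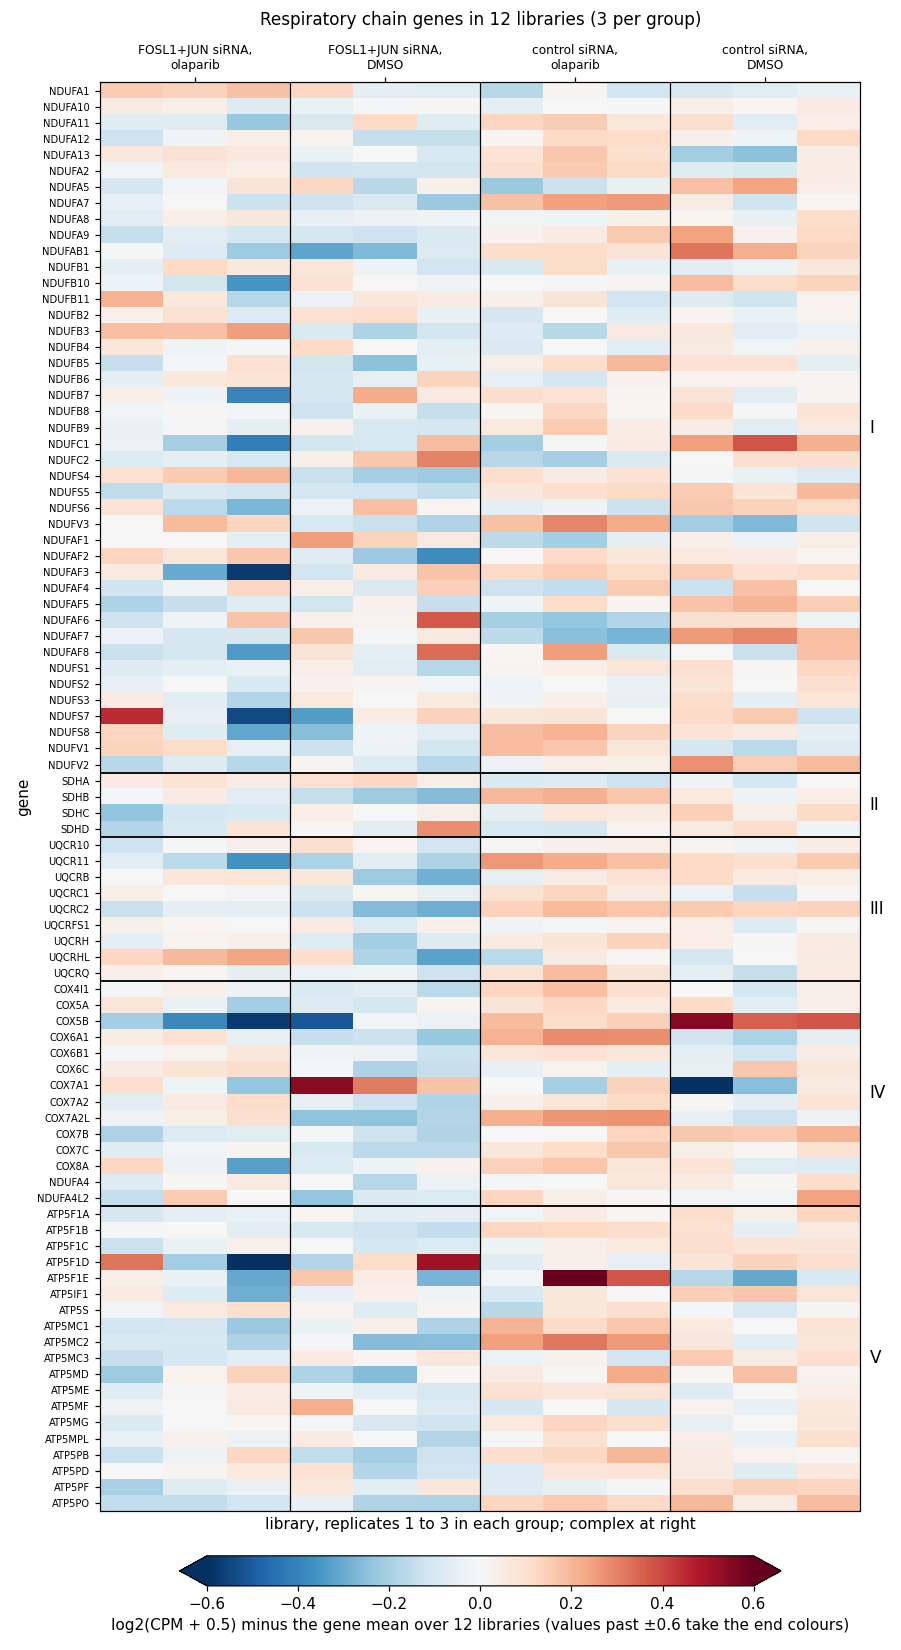
Level of the 89 tested members of complexes I to V in each of the 12 libraries, as log2(CPM + 0.5) minus the gene's own mean over all libraries, with genes in rows by complex, groups in columns and colours limited to ±0.6. The knockdown columns are mostly below the gene mean for complexes III, IV and V, and replicate 3 of olaparib-treated knockdown cells departs from the other two for a minority of genes.

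The knockdown came with lower levels of many chain genes, by small amounts. In DMSO, 25 of 91 members fell and 2 rose by the edgeR test (adjusted p below 0.05), where 15.2% of the 12122 genes tested fell and 14.7% rose. In olaparib, 24 fell and 3 rose, where 19.3% of all genes fell and 19% rose. The 25 members were 27.5% of the 91 and the 24 members 26.4%. The median log2 change of the members was -0.08 in both conditions, and that of all genes was 0.00 in DMSO and 0.01 in olaparib. Knockdown and control libraries did not overlap, with the knockdown lower, for 33 members in DMSO (20.6% of all genes) and for 36 in olaparib (25.4% of all genes). They did not overlap, with the knockdown higher, for 3 members in DMSO (20.6% of all genes) and for 7 in olaparib (25% of all genes). Of the falls, 11 of 25 in DMSO and 12 of 24 in olaparib held whichever 1 of the 12 libraries was left out, and of the rises 0 of 2 and 2 of 3 did. In bulk RNA, fewer cells that express a gene and less of its RNA per cell cannot be told apart.

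Both knockdown comparisons use separate libraries, so their calls can be set side by side. Of the 91 members, 14 fell in both, where 9.97% of all genes did. Of the members called lower, they were 14 of 25 in DMSO and 14 of 24 in olaparib. Over all genes, 1208 of 1844 and 1208 of 2335 such calls were shared. The 14 members were NDUFAB1, NDUFS5 and NDUFA9 of complex I, SDHB of complex II, UQCRC2 and UQCR11 of complex III, COX5B, COX7A2L, COX7B and COX7C of complex IV, and ATP5F1B, ATP5PB, ATP5PO and ATP5MC2 of complex V. Leaving out any 1 of the 12 libraries kept both calls for NDUFS5, SDHB, UQCRC2, UQCR11, COX5B and ATP5PO. SDHA was the only member that rose in both, where 8.7% of all genes did. Across the 91 members the log2 changes in the 2 conditions had a Spearman correlation of 0.39, against 0.62 across all genes, and 67 members (73.6%) had the same sign, against 70.7% of all genes. These are correlations across genes, which are not independent replicates.

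How the libraries are scaled sets the absolute direction, though not how far the members' median lies from that of all genes. With trimmed-mean scaling, the members' median lay 0.09 below that of all genes on the log2 scale in both conditions. Scaling by library totals alone left that difference at 0.09 in both, but moved the median of all genes to 0.06 in DMSO and 0.11 in olaparib. The members' own median was then -0.03 in DMSO and 0.02 in olaparib, and their calls were 12 lower and 2 higher in DMSO, and 10 lower and 16 higher in olaparib. Over all genes, rises outnumbered falls in both conditions under that scaling, with counts given in a later section. The share of members that fell was then near that of all genes in both conditions, and the share that rose was below it. NDUFS5, UQCRC2, UQCR11, COX5B and ATP5PO fell in both conditions under either scaling.

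Summed over the members of each complex, the knockdown libraries lay below the matching control libraries without overlap for complexes I, III, IV and V in both conditions, and overlapped with them for complex II. No test was run on these sums. Complex III summed to 1652 ± 17.5 CPM in olaparib-treated knockdown cells and 1779 ± 32.9 CPM in olaparib-treated control cells, a ratio of 0.929. In DMSO it summed to 1550 ± 66.7 CPM in knockdown cells and 1719 ± 40.9 CPM in control cells, a ratio of 0.902 (SD, n = 3 each throughout). Complex IV summed to 2123 ± 27.6 and 2007 ± 26.4 CPM in knockdown cells with olaparib and with DMSO, against 2315 ± 29.3 and 2208 ± 57.7 CPM in control cells with olaparib and with DMSO. Its ratios were 0.917 in olaparib and 0.909 in DMSO. Complex V gave 3863 ± 40.1 and 3805 ± 102 CPM in knockdown cells with olaparib and with DMSO, against 4197 ± 66.2 and 4161 ± 113 CPM in the matching control cells, with ratios of 0.921 and 0.915. Complex I differed less, with ratios of 0.965 in olaparib and 0.949 in DMSO. Complex II summed to 583 ± 11.4 and 581 ± 6.10 CPM in knockdown cells with olaparib and with DMSO and to 585 ± 5.88 and 582 ± 16.01 CPM in control cells, with ratios of 0.997 and 0.998, a difference within the spread. All members together had ratios of 0.938 in olaparib and 0.927 in DMSO. With library totals these became 1.01 in olaparib and 0.961 in DMSO, so the lower sum in olaparib depends on the scaling. Complex II then had ratios of 1.07 in olaparib and 1.04 in DMSO. Its knockdown libraries lay above the matching control libraries without overlap in both conditions, so its level sum depends on the scaling too.

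**Figure D2:**
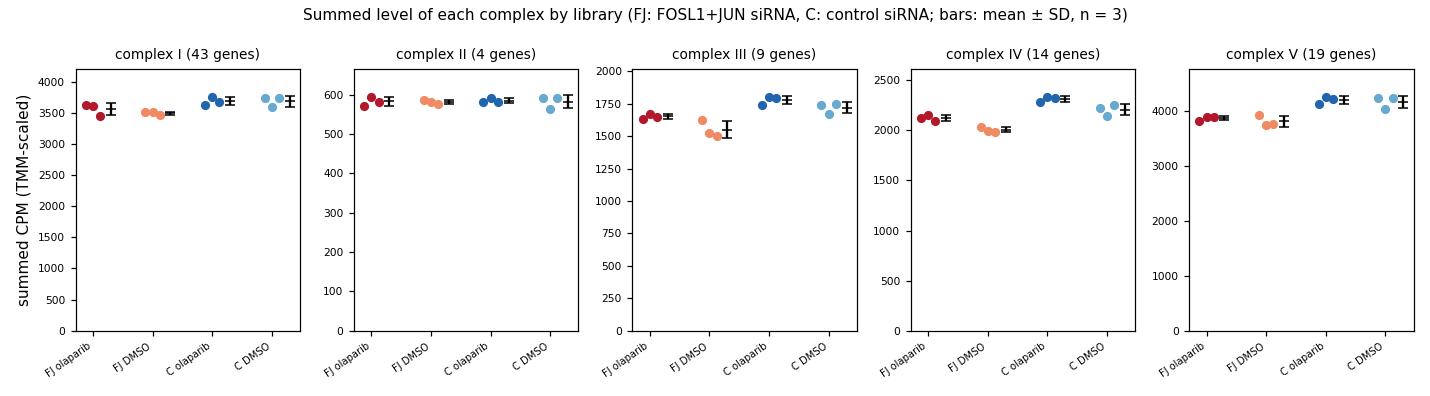
Summed CPM, after trimmed-mean scaling, of the members of each complex in each library (points) with the group mean and SD (n = 3), groups ordered as knockdown with olaparib, knockdown with DMSO, control with olaparib and control with DMSO. Knockdown sums lie below the matching control sums for complexes III, IV and V and at the same level for complex II. With library totals alone the olaparib ratios become 0.995 for complex III, 0.983 for complex IV and 0.987 for complex V. They then lie above 1 for complex I (1.03) and for complex II (1.07, and 1.04 in DMSO).

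In complex I, which oxidises NADH, 9 of 43 members fell (20.9%) and none rose in DMSO, and 7 fell (16.3%) and 2 rose (4.65%) in olaparib. Of all genes, 15.2% fell and 14.7% rose in DMSO, and 19.3% fell and 19% rose in olaparib. The share of complex I members that fell in olaparib was thus below that of all genes. NDUFS5, an accessory subunit facing the intermembrane space, had 173, 182 and 179 CPM in olaparib-treated knockdown cells and 202, 207 and 209 CPM in olaparib-treated control cells. It had 180.1, 178 and 175 CPM in DMSO-treated knockdown cells and 215, 205 and 221 CPM in DMSO-treated control cells. All 6 knockdown libraries lay below all 6 control libraries. The log2 change was -0.21 (edgeR adjusted p = 0.00106) in olaparib and -0.27 (SE 0.0452, edgeR adjusted p = 0.000165) in DMSO, and this gene is shown for its stability, having been chosen after its values were seen.

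NDUFAB1, the mitochondrial acyl carrier protein that is also a complex I subunit, had 73.2, 70.0 and 63.6 CPM in olaparib-treated knockdown cells and 79.4, 79.5 and 77.7 CPM in olaparib-treated control cells. It had 59.2, 61.2 and 69.6 CPM in DMSO-treated knockdown cells and 92.3, 85.9 and 80.9 CPM in DMSO-treated control cells. The groups did not overlap in either condition, and the gap was wider in DMSO, where NDUFAB1 fell by 0.44 on the log2 scale (SE 0.0693, edgeR adjusted p = 6.71e-05), than in olaparib, where it fell by 0.19 (SE 0.0691, edgeR adjusted p = 0.0341). The difference between the conditions itself did not pass the test (edgeR adjusted p = 0.138). The olaparib call was lost on leaving out any of 5 libraries, replicates 2 and 3 of olaparib-treated knockdown cells and each of the olaparib-treated control cells. NDUFV2, an iron-sulfur core subunit of the NADH-oxidising module, fell in DMSO by 0.29 (edgeR adjusted p = 0.000945), and its change in olaparib was -0.15 (edgeR adjusted p = 0.0563).

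Of the 7 core subunits of complex I tested, 2 fell in DMSO (NDUFV2 and NDUFS1) and 1 fell in olaparib (NDUFS8). The NDUFS1 change of -0.15 (edgeR adjusted p = 0.0419) lost its call without any of 8 libraries and came as near to 0 as -0.10, and the NDUFS8 change of -0.25 (edgeR adjusted p = 0.0327) lost its call without any of 5 olaparib libraries, all but replicate 1 of the knockdown cells, and came as near as -0.15. Of the 28 accessory subunits, 5 fell in each condition and 2 rose in olaparib. Both that rose are small subunits of the membrane arm. NDUFB3 had 42.3, 42.2 and 44.5 CPM in olaparib-treated knockdown cells, against 35.2, 33.1 and 38.7 CPM in olaparib-treated control cells, and rose by 0.26 (SE 0.0668, edgeR adjusted p = 0.00432). NDUFA1 had 259.8, 258 and 264 CPM in olaparib-treated knockdown cells, against 208, 236 and 216 CPM in olaparib-treated control cells, and rose by 0.24 (SE 0.0556, edgeR adjusted p = 0.00186). In neither case did the groups overlap.

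Of the 8 complex I assembly factors, NDUFAF2, a chaperone of late assembly, and NDUFAF5, a hydroxylase of a core subunit, fell in DMSO, by 0.27 and 0.26 on the log2 scale. The NDUFAF2 call was lost without the third replicate of DMSO-treated knockdown cells, and that of NDUFAF5 without any of 4 DMSO libraries. NDUFAF3, an early assembly factor, fell in olaparib by 0.38 (SE 0.116, edgeR adjusted p = 0.0181). It had 41.6, 32.4 and 26.7 CPM in olaparib-treated knockdown cells and 43.4, 44.5 and 43.2 CPM in olaparib-treated control cells. The spread of the knockdown libraries was much wider than that of the controls, and the call was lost without the second replicate of olaparib-treated knockdown cells or the second of olaparib-treated control cells.

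Complex II has only 4 subunits, all nuclear, and they went different ways. SDHA, the flavoprotein that oxidises succinate, had 297, 304 and 296 CPM in olaparib-treated knockdown cells and 270.0, 272 and 263 CPM in olaparib-treated control cells. It had 306, 313 and 294 CPM in DMSO-treated knockdown cells and 282, 267 and 287 CPM in DMSO-treated control cells. It rose by 0.15 in olaparib (edgeR adjusted p = 0.0095) and by 0.13 in DMSO (SE 0.0443, edgeR adjusted p = 0.0356), with no overlap between groups. The call in olaparib was lost without replicate 2 of the olaparib-treated knockdown cells, and the call in DMSO without any of 6 libraries, among them the first and second of both DMSO groups. SDHA has pseudogenes that can share its reads.

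SDHB, which carries the iron-sulfur clusters of complex II, moved the other way. It had 163, 169.7 and 157 CPM in olaparib-treated knockdown cells, against 188, 190.1 and 185 CPM in olaparib-treated control cells. It had 149, 141 and 137 CPM in DMSO-treated knockdown cells, against 171, 161 and 169 CPM in DMSO-treated control cells. SDHB fell by 0.20 in olaparib (SE 0.0487, edgeR adjusted p = 0.00346) and by 0.23 in DMSO (SE 0.0491, edgeR adjusted p = 0.00137), with no overlap in either condition. With library totals alone its change in olaparib was -0.10 (edgeR adjusted p = 0.0908). Of the membrane anchors, SDHC fell in olaparib by 0.16 (SE 0.0576, edgeR adjusted p = 0.0304), a call lost without any of 4 libraries, 2 in each olaparib group. SDHD had means of 56.8 ± 5.29 and 62.7 ± 8.09 CPM in knockdown cells with olaparib and with DMSO and of 56.9 ± 2.79 and 61.3 ± 2.75 CPM in control cells with olaparib and with DMSO, and passed no test.

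In complex III, 4 of 9 members fell in DMSO (44.4%, against 15.2% of all genes) and 2 fell in olaparib (22.2%, against 19.3%), and none rose. UQCRC2, a core protein of the complex, had 278, 294 and 294 CPM in olaparib-treated knockdown cells and 336, 349 and 343 CPM in olaparib-treated control cells. It had 279, 255 and 249 CPM in DMSO-treated knockdown cells and 341, 334 and 336 CPM in DMSO-treated control cells. The lowest control library was 336 in olaparib and 334 in DMSO, both well above the highest knockdown library of either group. UQCRC2 fell by 0.25 in olaparib (SE 0.0475, edgeR adjusted p = 0.000424) and by 0.37 in DMSO (SE 0.0476, edgeR adjusted p = 7.21e-06).

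UQCR11, a small membrane subunit of complex III, had 114, 107 and 92.7 CPM in olaparib-treated knockdown cells and 143, 139 and 135 CPM in olaparib-treated control cells. It had 104, 114 and 105 CPM in DMSO-treated knockdown cells and 129.7, 127 and 133 CPM in DMSO-treated control cells. Again all 6 knockdown libraries lay below all 6 control libraries. It fell by 0.41 in olaparib (SE 0.0631, edgeR adjusted p = 4.11e-05) and by 0.27 in DMSO (SE 0.0633, edgeR adjusted p = 0.00282). UQCRB, which helps form the ubiquinone site, and UQCRH also fell in DMSO, by 0.21 and 0.15. The UQCRB libraries overlapped between groups, and leaving out any of 5 DMSO libraries ended its call, with changes as near to 0 as -0.14. The UQCRH call was lost without any of 3 DMSO libraries.

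In complex IV, 13 of 14 members had log2 changes below 0 in each condition with trimmed-mean scaling. Of all 12122 genes, 5961 did in DMSO and 5918 in olaparib. In DMSO 5 fell (35.7%, against 15.2% of all genes) and 1 rose, and in olaparib 6 fell (42.9%, against 19.3%). COX5B, a zinc-binding subunit on the matrix side, had the largest called fall of any member in DMSO. It had 68.8, 60.7 and 53.1 CPM in olaparib-treated knockdown cells and 90.6, 85.7 and 87.7 CPM in olaparib-treated control cells. It had 55.5, 78.5 and 77.4 CPM in DMSO-treated knockdown cells and 116, 102 and 103 CPM in DMSO-treated control cells. The groups did not overlap, although the first knockdown library in DMSO stood well below the other two. COX5B fell by 0.53 in olaparib (SE 0.123, edgeR adjusted p = 0.00495) and by 0.60 in DMSO (SE 0.121, edgeR adjusted p = 0.0029).

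Among the other complex IV genes, COX7B and COX7C, small subunits of the membrane part, fell by 0.16 and 0.14 in olaparib and by 0.28 and 0.18 in DMSO. COX7A2L, a relative of COX7A2 that joins complexes III and IV into supercomplexes, fell by 0.21 in olaparib (SE 0.0491, edgeR adjusted p = 0.002) and by 0.15 in DMSO (SE 0.0498, edgeR adjusted p = 0.0263). COX6A1 and COX4I1 fell in olaparib, by 0.23 and 0.14, and COX6C fell in DMSO, by 0.18, with overlapping groups. Without single libraries the calls of COX7B, COX7C and COX4I1 in olaparib and of COX7A2L and COX6C in DMSO were lost, each for 3 or 4 libraries. COX7A1, the muscle form, was the member that rose in DMSO, by 0.66 (SE 0.202, edgeR adjusted p = 0.0179). Its level was low, at 3.70, 3.08 and 2.75 CPM in DMSO-treated knockdown cells, against 1.39, 1.92 and 2.49 CPM in DMSO-treated control cells, and leaving out any of 3 libraries ended the call.

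In complex V, 6 of 19 members (31.6%) fell in each condition and none rose, where 15.2% of all genes fell in DMSO and 19.3% in olaparib. ATP5PO, the stalk protein that couples the catalytic head to the membrane part, had 152, 152 and 156 CPM in olaparib-treated knockdown cells and 184, 188 and 183 CPM in olaparib-treated control cells. It had 164, 149 and 148 CPM in DMSO-treated knockdown cells and 193, 174 and 192 CPM in DMSO-treated control cells. The groups did not overlap, and the fall was of nearly the same size in both, 0.27 in olaparib (edgeR adjusted p = 0.000423) and 0.28 in DMSO (SE 0.0522, edgeR adjusted p = 0.000399). Of the 5 genes of the catalytic F1 head, the alpha, beta and gamma subunits ATP5F1A, ATP5F1B and ATP5F1C fell in DMSO, by 0.13, 0.15 and 0.15. In olaparib ATP5F1B fell by 0.14, and ATP5F1E, the epsilon subunit, fell by 0.45 with overlapping libraries at 10.2, 9.66 and 7.95 CPM in knockdown cells and 9.83, 15.3 and 13.1 CPM in control cells. ATP5F1E shares sequence with the pseudogene ATP5F1EP2, which fell by 0.85 in olaparib, with overlapping libraries all between 0.802 and 2.31 CPM. Both of these calls were lost without any of 4 olaparib libraries. In DMSO the calls of ATP5F1A, ATP5F1B and ATP5F1C were lost without any of 4, 1 and 5 libraries, and the ATP5F1B call in olaparib without 1.

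The proton ring of complex V is built from a single mature protein, subunit c, encoded by 3 genes. ATP5MC2 had 156, 155 and 146 CPM in olaparib-treated knockdown cells, against 196, 206 and 198 CPM in olaparib-treated control cells, and fell by 0.39 (SE 0.0625, edgeR adjusted p = 5.71e-05). ATP5MC1 had 60.8, 61.3 and 56.2 CPM against 75.9, 71.3 and 73.6 CPM in the same groups and fell by 0.31 (SE 0.0621, edgeR adjusted p = 0.000678). The remaining gene, ATP5MC3, had a change of -0.06 in olaparib (edgeR adjusted p = 0.35) and of -0.05 in DMSO (edgeR adjusted p = 0.455). In DMSO ATP5MC2 fell by 0.20 (SE 0.0629, edgeR adjusted p = 0.0212), with overlapping libraries and a call lost without any of 4 DMSO libraries, and the change of ATP5MC1 was -0.11 (edgeR adjusted p = 0.184).

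**Figure D3:**
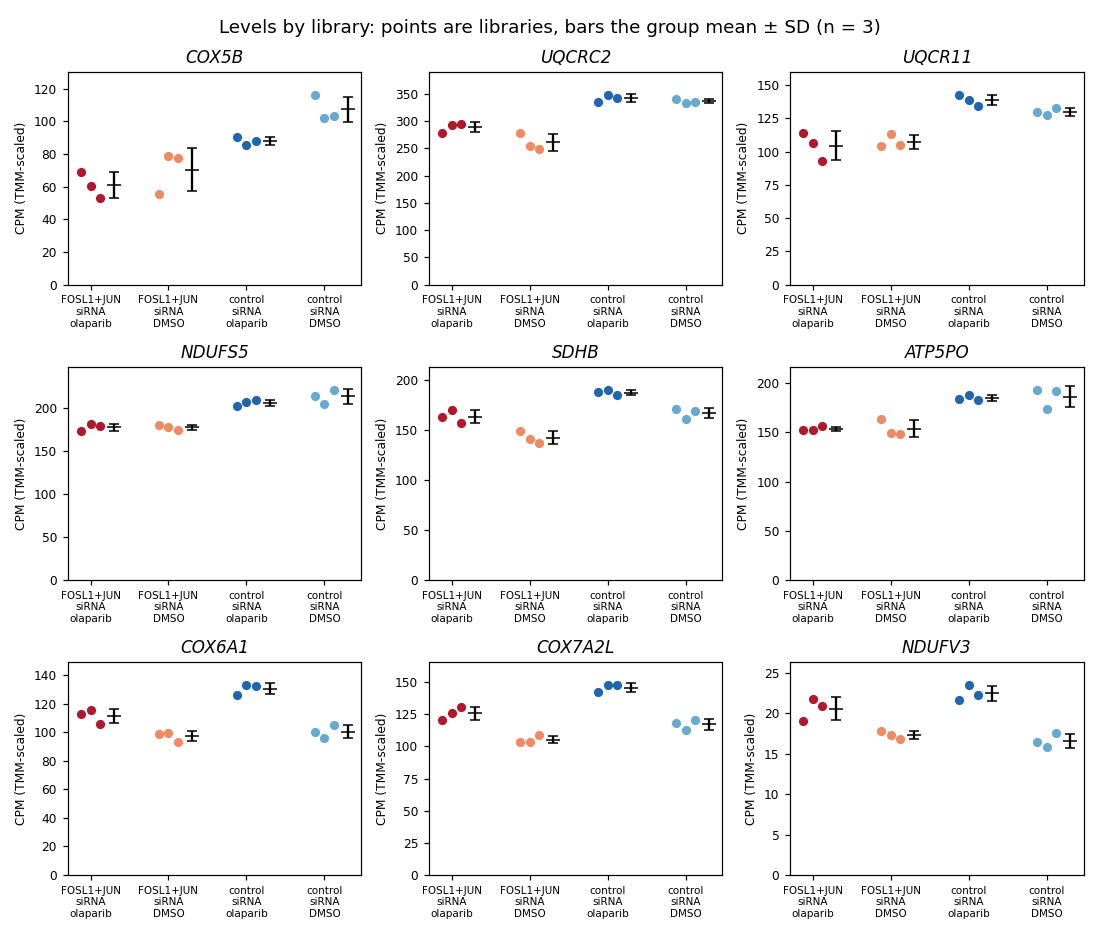
CPM after trimmed-mean scaling of 9 members in each of the 12 libraries (points) with group means and SD (n = 3), groups ordered as knockdown with olaparib, knockdown with DMSO, control with olaparib and control with DMSO. NDUFS5, UQCRC2, UQCR11 and ATP5PO have every knockdown library below every control library, COX5B has the largest called fall in DMSO on the log2 scale, and COX6A1 and COX7A2L are highest in olaparib-treated control cells; the call of SDHB in olaparib is lost with library totals alone (-0.10).

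With trimmed-mean scaling, olaparib changed a smaller share of the members than of all genes. In knockdown cells 17 of 91 members rose and 6 fell with olaparib, where 24.1% of all genes rose and 24% fell. In control cells 13 rose and 8 fell, where 23.6% rose and 23.2% fell. The members' median log2 change was 0.02 in knockdown cells and -0.00 in control cells, and that of all genes was -0.01 in both. By complex, in knockdown cells 7 of 43 complex I members rose and 4 fell, 1 of 4 in complex II rose and 1 fell, and 1 of 19 in complex V rose and 1 fell. There 3 of 9 in complex III (33.3%) and 5 of 14 in complex IV (35.7%) rose and none fell, shares of rises above the 24.1% of all genes. In control cells 5 complex I members rose and 6 fell, 1 of complex II, 2 of complex III and 3 of complex IV rose and none fell, and 2 of complex V rose and 2 fell. With library totals alone the calls became 8 higher and 16 lower in knockdown cells and 6 higher and 31 lower in control cells, with the median of all genes at -0.06 and -0.11. Over all genes falls outnumbered rises too under that scaling, with counts given in a later section. The share of members that fell in control cells was then near that of all genes, and the other shares stayed below it.

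The members that rose with olaparib in both siRNA backgrounds were COX6A1, COX7A2L, NDUFV1, NDUFV3, NDUFA2 and SDHB. They were 6 of the 91 members, where 16.3% of all genes rose in both. Of the members called higher, they were 6 of 17 in knockdown cells and 6 of 13 in control cells. Over all genes, 1973 of 2918 and 1973 of 2866 such calls were shared. COX6A1 had 112, 116 and 106 CPM in olaparib-treated knockdown cells and 99.0, 99.7 and 93.3 CPM in DMSO-treated knockdown cells. In control cells it had 126, 133 and 133 CPM with olaparib and 100.4, 95.6 and 105 CPM with DMSO. The groups did not overlap in either background. Its log2 change was 0.20 in knockdown cells (SE 0.0537, edgeR adjusted p = 0.00529) and 0.38 in control cells (SE 0.0541, edgeR adjusted p = 1.47e-05), and the difference between them was -0.18 (SE 0.0762, edgeR adjusted p = 0.162).

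COX7A2L, the supercomplex factor, had 121, 126 and 131 CPM with olaparib and 104, 103 and 109 CPM with DMSO in knockdown cells, and 142, 148 and 148 CPM with olaparib and 118, 113 and 120.2 CPM with DMSO in control cells. It rose by 0.26 in knockdown cells (SE 0.0494, edgeR adjusted p = 0.000322) and by 0.32 in control cells (SE 0.0496, edgeR adjusted p = 4e-05), again without overlap. NDUFV3, an accessory subunit of the NADH-oxidising module, rose by 0.26 in knockdown cells (SE 0.0761, edgeR adjusted p = 0.00824) and by 0.44 in control cells (SE 0.0790, edgeR adjusted p = 0.000179). NDUFV1, which binds the flavin in that module, rose by 0.16 in knockdown cells, with overlapping libraries, and by 0.26 in control cells (SE 0.0540, edgeR adjusted p = 0.000736). SDHB rose by 0.20 in knockdown cells (SE 0.0488, edgeR adjusted p = 0.0023) and by 0.17 in control cells (SE 0.0489, edgeR adjusted p = 0.00879). The calls of COX6A1, COX7A2L and SDHB held without any 1 library in both backgrounds, that of NDUFV3 in knockdown cells was lost without the second replicate of olaparib-treated knockdown cells, and that of SDHB in control cells was lost with library totals alone (0.07, edgeR adjusted p = 0.228).

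The other large rises in olaparib-treated knockdown cells were of NDUFAF2 (0.35), NDUFS4 (0.34), NDUFB3 (0.34) and UQCRHL (0.33). NDUFS4, a complex I subunit needed for assembly of the NADH-oxidising module, had 66.1, 69.2 and 71.3 CPM in olaparib-treated knockdown cells and 56.6, 54.0 and 53.4 CPM in DMSO-treated knockdown cells, without overlap (edgeR adjusted p = 5.1e-05). In control cells ATP5F1E rose by 0.56 (SE 0.154, edgeR adjusted p = 0.00722), at levels of 9.83, 15.3 and 13.1 CPM with olaparib and 8.77, 7.92 and 9.27 CPM with DMSO.

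Complex I, with 43 of the 91 members, held 4 of the 6 falls with olaparib in knockdown cells and 6 of the 8 in control cells. Those were 9.3% and 14% of its members, where 24% and 23.2% of all genes fell. NDUFAF7, a methyltransferase that modifies a core subunit during assembly, had 14.3, 13.4 and 13.1 CPM in olaparib-treated control cells and 19.3, 19.7 and 18.2 CPM in DMSO-treated control cells. It fell by 0.49 there (SE 0.0806, edgeR adjusted p = 6.87e-05), without overlap, and its change in knockdown cells was -0.15 (edgeR adjusted p = 0.119). The other large falls in control cells were those of the accessory subunits NDUFC1 (-0.33), NDUFA5 (-0.29), NDUFC2 (-0.22) and NDUFS6 (-0.21). In knockdown cells they were those of NDUFAF8 (-0.33), which partners NDUFAF5, NDUFAF3 (-0.31), NDUFC2 (-0.25), NDUFB10 (-0.18) and SDHC (-0.17). NDUFC2 and ATP5MC3 were the members that fell in both backgrounds, where 15.2% of all genes did, and for neither gene did both calls hold under every left-out library. Of the falls, 1 of 6 in knockdown cells (NDUFC2) and 2 of 8 in control cells (NDUFAF7 and NDUFA5) held whichever 1 library was left out. In knockdown cells the NDUFAF3 call was lost without any of 10 libraries, with changes as near to 0 as -0.19. There the NDUFAF8 call was lost without replicate 3 of either group (up to -0.19, edgeR adjusted p = 0.212), and the NDUFB10 call without olaparib replicate 3 or DMSO replicate 1 (up to -0.10, edgeR adjusted p = 0.186). The SDHC call was lost without olaparib replicate 1. In control cells the NDUFS6 call was lost without any of its 6 libraries, that of NDUFC1 without any of 2 and that of NDUFC2 without 1.

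**Figure D4:**
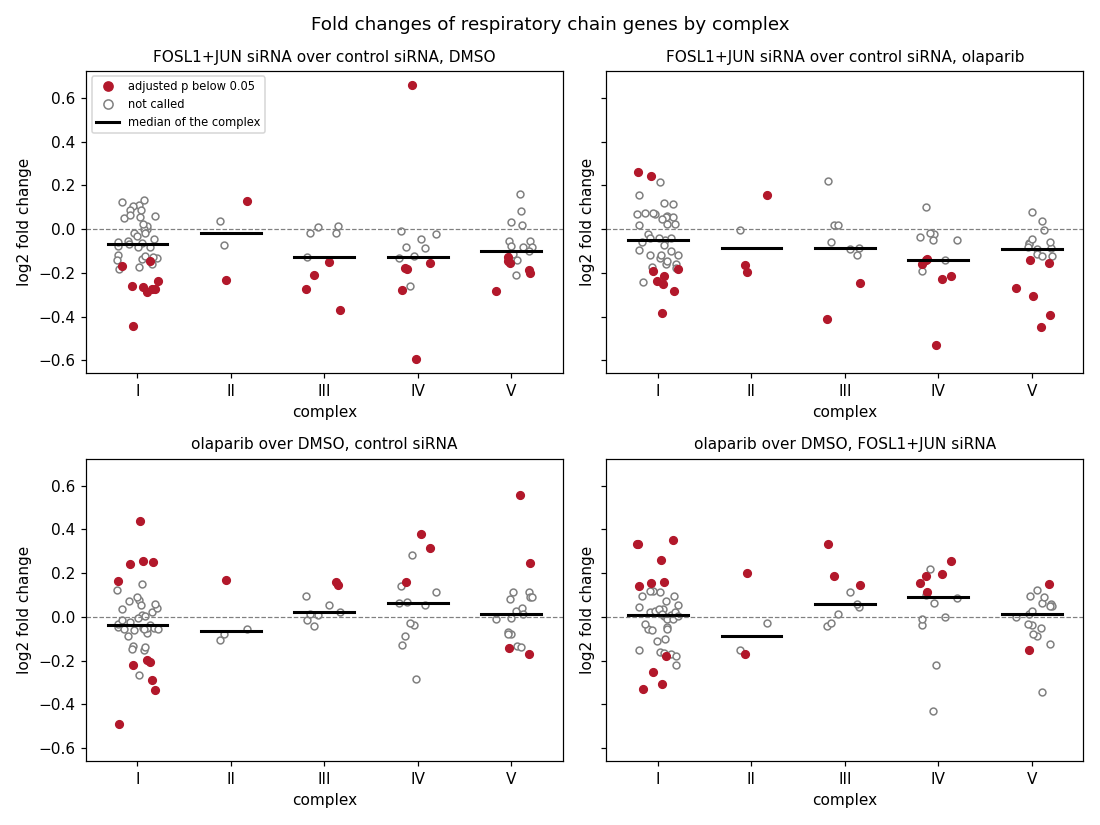
Log2 change of each tested member, by complex, in the 4 comparisons (points; filled where the edgeR adjusted p is below 0.05), with a bar at the median of each complex. In the knockdown comparisons the members of complexes III, IV and V lie mostly below 0, and in the olaparib comparisons they spread to both sides; with library totals alone the members' median becomes 0.02 in the knockdown comparison in olaparib and -0.03 in that in DMSO.

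Whether the olaparib response differed with the knockdown was tested gene by gene as an interaction. Of the 91 members 2 passed, both upward, where 5.69% of all genes passed, 2.84% upward and 2.85% downward. NDUFB3 had the difference in log2 change of 0.38 (SE 0.0954, edgeR adjusted p = 0.0245). It had 42.3, 42.2 and 44.5 CPM in olaparib-treated knockdown cells and 35.01, 32.7 and 34.4 CPM in DMSO-treated knockdown cells, against 35.2, 33.1 and 38.7 CPM in olaparib-treated control cells and 38.9, 35.5 and 36.3 CPM in DMSO-treated control cells. Knockdown cells with olaparib stood above the other 3 groups. In DMSO every knockdown library lay below every control library, with a log2 change of -0.12 (SE 0.0680, edgeR adjusted p = 0.21) that did not pass the test. The call was lost on leaving out any of 5 libraries, with adjusted p up to 0.0825.

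COX6C, a complex IV subunit, had a difference of 0.28 (SE 0.0800, edgeR adjusted p = 0.0464). Its values were 195, 199 and 203 CPM in olaparib-treated knockdown cells and 187, 166 and 171 CPM in DMSO-treated knockdown cells, and 183, 191 and 182 CPM in olaparib-treated control cells and 182, 211 and 198 CPM in DMSO-treated control cells. The control groups overlapped, and leaving out any of 9 of the 12 libraries ended the call, as did an adjustment for GC content and length (0.18, edgeR adjusted p = 0.0959).

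The libraries differed in how counts depended on the GC content of the transcripts. The slope of a gene's deviation on GC, in log2 units per 10 percentage points, was 0.0547, -0.0407 and -0.165 in olaparib-treated knockdown cells and 0.0206, 0.119 and 0.0542 in DMSO-treated knockdown cells. It was 0.0199, 0.0247 and -0.0417 in olaparib-treated control cells and -0.0184, -0.0397 and 0.0129 in DMSO-treated control cells. Replicate 3 of olaparib-treated knockdown cells and replicate 2 of DMSO-treated knockdown cells thus stood at opposite ends. For the comparisons, the slopes were -0.04 for knockdown in olaparib, 0.08 for knockdown in DMSO, -0.11 for olaparib in knockdown cells, 0.01 for olaparib in control cells and -0.13 for the interaction. Over the 90 members with a GC value the interaction had a Spearman correlation with GC of -0.43, and over all genes it was -0.48.

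The chain genes as a set did not differ much in GC, with a median of 47.5% against 47.9% for all genes, but they were short, with a median length of 996 bases against 3398. GC-rich members showed the library differences most plainly and were chosen as examples after their values were seen. ATP5F1D, the delta subunit of F1 (GC 63.9%), had 91.1, 62.9 and 42.4 CPM in olaparib-treated knockdown cells and 64.5, 78.7 and 104 CPM in DMSO-treated knockdown cells. In control cells it had 69.2, 74.4 and 70.3 CPM with olaparib and 76.9, 80.2 and 77.9 CPM with DMSO. The knockdown libraries thus spread over more than the whole range of the controls. NDUFS7, an iron-sulfur core subunit of complex I (GC 60.8%), had 81.4, 57.5 and 40.7 CPM in olaparib-treated knockdown cells, against 62.4, 62.8 and 59.5 CPM in olaparib-treated control cells. Over the 11 members above 60% GC, the median deviation from the gene mean was 0.05, -0.04 and -0.23 in the 3 libraries of olaparib-treated knockdown cells, and over the other members it was -0.04, -0.01 and -0.04.

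Sorted into 5 equal classes of all genes by GC, the knockdown medians of all genes in DMSO were -0.05, -0.05, -0.02, 0.04 and 0.12 from the lowest to the highest class. The members' medians were -0.12, -0.12, -0.13, -0.08 and 0.02, below those of all genes in every class. In olaparib the medians of all genes were 0.09, 0.03, -0.01, -0.04 and -0.04, and those of the members -0.02, -0.04, -0.12, -0.06 and -0.09, again lower in each. The classes held 11, 24, 25, 15 and 15 members. By length, 68 of 91 members were in the shortest of 5 equal classes (between 61 and 1921 bases). There the knockdown median was -0.08 for members and -0.03 for all genes in DMSO, and -0.09 for members and -0.05 for all genes in olaparib.

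When GC content and length were adjusted for in each library, the members' knockdown median moved to -0.03 in DMSO and -0.05 in olaparib, with 18 lower and 6 higher in DMSO and 28 lower and 7 higher in olaparib. The share of all genes called with this adjustment is not given here, so these counts have no share to be read against. Relative to all genes, the members' median went from -0.086 to -0.035 in DMSO and from -0.093 to -0.054 in olaparib. Of the 14 members called lower in both conditions, 10 kept both calls and COX7A2L, COX7C, NDUFAB1 and COX7B did not. With that adjustment COX5B had changes of -0.41 in olaparib (edgeR adjusted p = 0.0309) and -0.53 in DMSO (edgeR adjusted p = 0.0115), UQCRC2 of -0.25 and -0.31, and UQCR11 of -0.34 and -0.25. NDUFS5 had -0.12 and -0.17, SDHB -0.14 and -0.16, and ATP5PO -0.23 and -0.16, all past the threshold. COX6A1 no longer passed for olaparib in knockdown cells (0.08, edgeR adjusted p = 0.212).

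**Figure D5:**
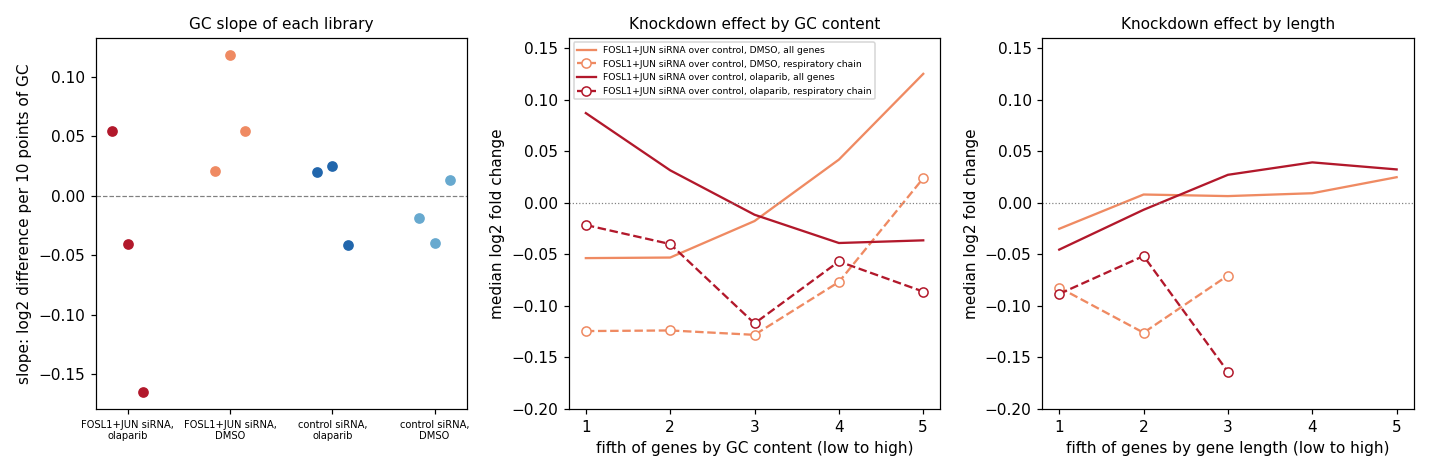
Slope of each library's deviation on GC content (log2 per 10 percentage points), and median knockdown log2 change by class of GC content and of gene length (5 equal classes each) for members and for all genes, in olaparib and in DMSO; length classes with fewer than 5 members are not drawn. Replicate 3 of olaparib-treated knockdown cells has the lowest slope (-0.165) and replicate 2 of DMSO-treated knockdown cells the highest (0.119), and the members' medians are below those of all genes in each GC class; the members' median in olaparib is above 0 (0.02) with library totals alone.

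Genes around the chain were described from 4 lists, whose counts stand beside 19.3% of all genes lower and 19% higher with the knockdown in olaparib, and 15.2% lower and 14.7% higher in DMSO. Of 23 electron carriers and links (ubiquinone synthesis, cytochrome c and transport), 8 fell (34.8%) and 2 rose (8.7%) with the knockdown in olaparib, and 7 fell (30.4%) and none rose in DMSO. COQ9 and PDSS2, both needed to make ubiquinone, fell by 0.34 and 0.38 in olaparib and by 0.38 and 0.47 in DMSO. CYC1, the nuclear-encoded cytochrome of complex III that the symbol rule did not reach, fell in olaparib by 0.21 (SE 0.0549, edgeR adjusted p = 0.00444), and its change in DMSO was -0.03 (edgeR adjusted p = 0.734). Of 44 other assembly factors, 2 fell (4.55%) and 5 rose (11.4%) in olaparib, and 4 fell (9.09%) and 1 rose (2.27%) in DMSO, shares below those of all genes. COX17 and COX19, which serve copper delivery to complex IV, fell in DMSO by 0.35 and 0.46.

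Of 26 genes of the citric acid cycle and pyruvate entry, 9 fell (34.6%) and 6 rose (23.1%) with the knockdown in olaparib, and 6 fell (23.1%) and 3 rose (11.5%) in DMSO. MPC1, a subunit of the mitochondrial pyruvate carrier, had means of 15.4 CPM in both groups of knockdown cells, against 23.3 CPM in olaparib-treated control cells and 24.0 CPM in DMSO-treated control cells. It fell by 0.59 in olaparib (SE 0.0825, edgeR adjusted p = 1.3e-05) and by 0.63 in DMSO (SE 0.0830, edgeR adjusted p = 8.72e-06). PDK4, a kinase that shuts down pyruvate dehydrogenase, rose by 0.64 in olaparib (SE 0.145, edgeR adjusted p = 0.00174) and by 1.62 in DMSO (SE 0.195, edgeR adjusted p = 2.84e-06). PDK1, another such kinase and a HIF1A target, fell by 0.43 in olaparib and by 0.41 in DMSO, and HIF1A itself fell by 0.31 and 0.34. TFAM, the packaging and transcription factor of mitochondrial DNA, rose in olaparib by 0.46 (SE 0.0743, edgeR adjusted p = 7.3e-05), with a change of 0.16 in DMSO (edgeR adjusted p = 0.106). Of the 20 regulators on that list, 1 rose (5%) and 2 fell (10%) in each condition, shares below those of all genes.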

How the data were processed

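RNA was measured in 12 libraries of the BT549 cell line in 4 groups of 3. The authors deposited raw counts per gene with gene symbols, gene identifiers and gene lengths, per the file headers, and tables of log2 fold changes and adjusted p-values for their comparisons. The submitters' processing notes name bcl2fastq (2.20.0.422). Aligner, counting tool, strand setting and genome build are not given in the sources used here. Library totals ran between 13763179 and 39715900 counts. Rows without a symbol (51, of which 4 were tested) held between 0.00223% and 0.00311% of the counts.

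Counts were tested with edgeR 4.0.16 (R 4.3.3, limma 3.58.1): trimmed-mean (TMM) scaling, robust quasi-likelihood fit of 4 group means over all 12 libraries with 8 residual degrees of freedom, and Benjamini-Hochberg adjustment over 12122 genes with more than 1 CPM in at least 3 libraries; calls have an adjusted p below 0.05. The biological coefficient of variation was 6.1%. Printed CPM are TMM-scaled, and the SE is the log2 change divided by the square root of its F value. The test was checked on simulated counts. Alternatives were DESeq2 1.42.0, other scaling, filters and thinned counts, each library left out, a replicate block, and offsets for GC content and length fitted by loess (span 0.5) on the longest transcript of each gene. Members and lists were chosen with earlier results of these data known. Genes named are the siRNA targets, complex II, the isoform pairs, the highest and lowest RPKM of each complex, the 5 largest called rises and falls of each comparison and the 2 largest called changes of each other list; further names complete counts of calls, stand as examples or were chosen after their values were seen. No pairing of libraries by replicate number was seen: over 18 same-numbered pairs the correlation of deviations ran between -0.269 and 0.196, and 2 were over 0.1. This cannot exclude a pairing, as each group has only 3 libraries and their GC slopes differ.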

Additional observations from a re-analysis of the deposited data

Results flagged for a closer look

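Tested here were 91 members and 44, 23, 20 and 26 genes of the 4 surrounding lists. Of these, 6 genes had an olaparib effect in knockdown cells that differed from that in control cells by the interaction test of edgeR. That is a smaller share than the 5.69% of all genes that did. NDUFB3 differed by 0.38 on the log2 scale (SE 0.0954, adjusted p = 0.0245) and COX6C by 0.28 (SE 0.0800, adjusted p = 0.0464), both upward in knockdown cells. LYRM7, an assembly factor for the iron-sulfur protein of complex III, differed by 0.56 (SE 0.117, adjusted p = 0.00881), with group means of 23.8 and 21.0 CPM in knockdown cells with olaparib and with DMSO and 15.9 and 21.0 CPM in control cells with olaparib and with DMSO. PDK4 differed by -0.98 (SE 0.249, adjusted p = 0.0261), with means of 5.69 and 3.62 CPM in knockdown cells with olaparib and with DMSO and 3.58 and 1.201 CPM in control cells with olaparib and with DMSO. IDH3G, a subunit of the citric acid cycle isocitrate dehydrogenase, differed by -0.29 (SE 0.0751, adjusted p = 0.0296), and PPRC1, a coactivator of the PGC-1 family, by -0.28 (SE 0.0824, adjusted p = 0.0476). Interaction log2 changes of all genes had a Spearman correlation of -0.48 with GC content, and the part of GC content in these 6 differences was not tested, except that COX6C lost its call after GC and length adjustment and NDUFB3 kept it (0.30, adjusted p = 0.0211).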

How the results depend on the processing

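Depth and 3 libraries a group limit what small changes can be called. Counts of members called and the members' median log2 change stayed within 1.5 times, or within the spread of the median between libraries (SD 0.0267), under DESeq2, another size factor and another filter in each comparison. Scaling by library totals alone gave 6 higher and 31 lower (median -0.10) for olaparib in control cells, 8 and 16 (-0.0382) for olaparib in knockdown cells, 12 lower (-0.0291) for knockdown in DMSO, 16 and 10 (0.0153) for knockdown in olaparib, and 5 higher (0.0743) for the interaction. Over all genes the same scaling called 2340 higher and 3646 lower for olaparib in knockdown cells and 1885 and 4204 in control cells (2918 and 2904, and 2866 and 2810, with trimmed means). For knockdown it called 3835 and 1454 in olaparib and 2488 and 1360 in DMSO (2308 and 2335, and 1780 and 1844, with trimmed means), and 553 and 241 for the interaction (344 and 346 with trimmed means).

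With no filter on low counts, with counts thinned to the smallest library, with only the 2 groups compared and with the replicate block, 1 member rose with knockdown in DMSO. Using only the 2 groups gave 15 lower for olaparib in control cells and 9 higher and 3 lower in knockdown cells. The replicate block left 1 member higher for the interaction, COX6C being lost (adjusted p = 0.0629). Its other counts were 16 higher and 5 lower for olaparib in knockdown cells, 13 and 9 for olaparib in control cells, and 25 lower for knockdown in each condition. SDHA was no longer called higher with knockdown in both conditions without the filter, with only the 2 groups and with the block. Of the 12 libraries, 3 correlated best with their own number.

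With GC and length offsets, 14 members were lower for olaparib in control cells, 12 lower (-0.0176) in knockdown cells, 6 higher (-0.0307) for knockdown in DMSO, 7 higher (-0.0506) for knockdown in olaparib and 1 lower (-0.00933) for the interaction. Counts of all genes called with GC or length offsets are not given here. Together with the replicate block the values were 11 lower (-0.0177) for olaparib in knockdown cells, 5 higher (-0.0301) and 7 higher (-0.0508) for knockdown in DMSO and in olaparib, and 1 higher and 2 lower (-0.0103) for the interaction, and COX5B in olaparib was at -0.41 (adjusted p = 0.0705). The following were chosen after seeing the data. With the mean over transcripts, 16 were lower for olaparib in control cells, 12 lower in knockdown cells, 6 higher (-0.0377) and 9 higher (-0.0559) for knockdown in DMSO and in olaparib, and 1 lower (-0.00243) for the interaction. Length offsets alone gave 7 higher and 15 lower (-0.0350) for knockdown in olaparib. COX7C for olaparib in knockdown cells changed sign, at -0.0202 with GC and length offsets, -0.0202 with the block added and -0.0148 with the mean over transcripts. In that comparison 2 members were reversed with the mean over transcripts, against 1 with GC and length offsets, with or without the block. The cause was not tested. The 14 members lower with knockdown in both conditions numbered 10 with GC and length offsets, 9 with the block added, 13 with GC offsets alone, 8 with length offsets alone and 5 with library totals.

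Leaving out 1 library at a time, olaparib in control cells gave 9 to 15 higher and 3 to 12 lower (median -0.02 to 0.02), and olaparib in knockdown cells 8 to 18 higher and 4 to 10 lower (0.01 to 0.04). Knockdown in DMSO gave 0 to 3 higher and 13 to 27 lower (-0.11 to -0.0786), knockdown in olaparib 2 to 4 higher and 15 to 25 lower (-0.09 to -0.07), and the interaction 0 to 5 higher and 0 to 1 lower (0.01 to 0.04). Members lower with knockdown in DMSO numbered 13 without replicate 1 and 16 without replicate 3 of the control libraries in DMSO, and 15 without replicate 2 of the knockdown libraries in DMSO. In olaparib they numbered 15 without knockdown replicate 2 or control replicate 3. For olaparib in knockdown cells, rises numbered 8 and 11 without olaparib replicates 2 and 3 and 10 without DMSO replicate 2, and falls 10 without olaparib replicate 1. For olaparib in control cells, falls numbered 3 and 5 without olaparib replicates 1 and 2, and 5 without any of the DMSO libraries. Rises with knockdown in DMSO numbered 0 without knockdown replicate 1 or control replicates 1 or 2 in DMSO, 3 without control replicate 3, and 1 without knockdown replicate 2 of either condition or control replicate 1 in olaparib. Rises in the interaction numbered 5 without knockdown replicate 1 in DMSO, 0 without knockdown replicate 2 of either condition or control replicates 1 or 2 in olaparib, and 1 without knockdown or control replicate 3 in olaparib or any control library in DMSO. In the authors' deposited table, 3 of 91 members rose and 24 fell with knockdown in olaparib, and 2 rose and 26 fell in DMSO. Of all genes in that table, 39.6% were called in olaparib and 31.1% in DMSO, in either direction.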

Other observations

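With olaparib, the surrounding lists held larger single changes than the chain itself, although most of their counts of calls were near or below the share of all genes, of which 24.1% rose and 24% fell in knockdown cells and 23.6% rose and 23.2% fell in control cells. Of 44 other assembly factors, 8 rose (18.2%) and 7 fell (15.9%) in knockdown cells and 4 rose (9.09%) and 13 fell (29.5%) in control cells. SDHAF4, an assembly factor of complex II, rose by 0.70 in knockdown cells and by 0.43 in control cells by the edgeR test, while UQCC1 of complex III fell by 0.41 and 0.53 and COX20 of complex IV fell by 0.53 and 0.45. Of 23 electron carriers and links, 5 rose (21.7%) and 2 fell (8.7%) in knockdown cells and 5 rose (21.7%) and 4 fell (17.4%) in control cells. COQ8A, a kinase-like protein of ubiquinone synthesis, had group means of 41.9 and 28.6 CPM in knockdown cells with olaparib and with DMSO and of 47.4 and 26.5 CPM in control cells with olaparib and with DMSO. It rose by 0.55 in knockdown cells (SE 0.0682, adjusted p = 2.87e-06) and by 0.84 in control cells (SE 0.0703, adjusted p = 1.77e-08).

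Of 20 regulators, 7 rose (35%) and 2 fell (10%) with olaparib in knockdown cells and 6 rose (30%) and 3 fell (15%) in control cells. PPARGC1A, the PGC-1 alpha coactivator of mitochondrial genes, was low at means of 2.82 and 1.89 CPM in knockdown cells with olaparib and with DMSO and 3.23 and 1.76 CPM in control cells with olaparib and with DMSO, and rose by 0.55 and 0.87. MTERF1, a mitochondrial transcription termination factor, fell by 0.67 in knockdown cells and by 0.78 in control cells. Of 26 genes of the citric acid cycle and pyruvate entry, 6 rose (23.1%) and 3 fell (11.5%) in knockdown cells and 8 rose (30.8%) and 6 fell (23.1%) in control cells. PDP1, the phosphatase that activates pyruvate dehydrogenase, rose by 0.58 (SE 0.0563, adjusted p = 1.28e-07) and by 0.75 (SE 0.0571, adjusted p = 4.37e-09). PDK1, a kinase acting in the opposite direction, fell by 0.62 in knockdown cells and by 0.60 in control cells. PDK4, another such kinase, rose by 0.60 and 1.57.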
